A study of Mus musculus with 6 samples.

Results

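The 10 genes described here are the core writers, readers and erasers of N6-methyladenosine (m6A) in mouse: *Mettl3*, *Mettl14* and *Wtap* as writers, *Ythdf1*, *Ythdf2*, *Ythdf3*, *Ythdc1* and *Ythdc2* as readers, and *Alkbh5* and *Fto* as erasers. They were chosen by name from a table of 46078 genes, and all 10 were among the 14828 genes with enough counts to be tested. RNA was measured in C2C12 cells, a mouse myoblast line that forms multinucleated myotubes on serum withdrawal, after 2 days of differentiation, induced by lowering the serum and adding ITS (insulin, transferrin and selenium). The KO cells carried a CRISPR disruption of *Hnrnpa2b1*, which encodes an RNA-binding protein proposed as a nuclear m6A reader, and the WT cells did not, and each genotype has 3 libraries, numbered 1 to 3 (KO1, WT1 and so on). Values of single libraries are given in that order. According to the methods, Cas9 and its guide were given on a plasmid with puromycin selection and clones were isolated. The methods describe independent clones of both genotypes, but do not tie the libraries to them, so p-values measure the spread between these libraries and cannot tell the edited gene from differences between clones.

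m6A is the most common internal modification of messenger RNA. *Mettl3* carries the catalytic site of the writer complex, *Mettl14* is its partner that helps bind RNA, and *Wtap* holds the pair in nuclear speckles. The mark is read by proteins with a YTH domain. *Ythdf1*, *Ythdf2* and *Ythdf3* are cytoplasmic, *Ythdc1* is nuclear, and *Ythdc2* also has a helicase domain. *Alkbh5* and *Fto* are dioxygenases that remove the methyl group, *Fto* also from the cap-adjacent base m6Am. The question put to the data was whether the RNA levels of these genes differed between KO and WT cells. The libraries measure RNA amounts, and neither m6A itself nor protein was measured.

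Between 33605258 and 40558740 reads were counted on genes per library, and a member had between 515 and 6553 of them. *Hnrnpa2b1* itself (ENSMUSG00000004980, chromosome 6, 51460434 to 51469894) gave 159, 195 and 249 CPM (counts relative to the library total) in KO against 225, 229 and 252 in WT, with library sizes adjusted by edgeR's TMM factors. KO3 lay within the WT libraries, and the fold change, given throughout as log2 of KO over WT, was −0.23 ± 0.18 (SE, adjusted p = 0.381, edgeR quasi-likelihood test). In TPM it was at 29.5, 38.0 and 59.9 in KO against 56.6, 57.4 and 58.0 in WT, with a difference of −0.49 ± 0.24 on the log2(TPM + 1) scale (SE, limma adjusted p = 0.174). The size of the difference depended on the KO libraries. Without KO3 it was −0.41 in counts (edgeR adjusted p = 0.119) and −0.76 in TPM (limma adjusted p = 0.027), and without KO1 −0.09 in counts (edgeR adjusted p = 0.688) and −0.26 in TPM (limma adjusted p = 0.358). KO1 and KO2 were thus below all WT libraries and KO3 above them in TPM. RNA levels cannot show the edit itself and are no full check of the genotype labels, and the study assessed the loss of the protein in the clones by immunofluorescence and Western blot. All 16 markers of differentiating muscle were tested, and 1 was higher in KO (*Myod1*) and 1 lower (*Myl1*) in edgeR. DESeq2 called the same genes and also *Actc1* and *Myh3* lower, and at an unadjusted p under 0.05 in edgeR 1 marker was higher and 4 were lower. Over all genes tested, edgeR called 22.7% and DESeq2 23.9%, and 39.0% had an unadjusted p under 0.05 in edgeR. Their summed level was 11830, 4988 and 4978 TPM (a level corrected for transcript length) in KO against 12040, 8980 and 10830 in WT. KO1 lay among the WT libraries in this sum but not in most single markers. In TPM it was below all WT libraries in *Myl1*, *Actc1*, *Myh3*, *Myh8* and *Myl4*. It was above them all in *Acta1*, *Tnnt1*, *Tnnt3*, *Tnnc1*, *Tnnc2*, *Myod1*, *Myog*, *Mymk* and *Mymx*, and among them in *Des* and *Ckm*. Of 8 markers of dividing cells, 0 passed the test in edgeR, 2 had an unadjusted p under 0.05 and 2 passed in DESeq2 (*Mki67* and *Mcm5*, both higher). Of markers of other cell types, the osteoblast gene *Alpl* and the neuronal tubulin *Tubb3* were higher in KO in edgeR. All 3 osteoblast markers tested (*Alpl*, *Runx2* and *Bglap*) were higher in DESeq2 and at an unadjusted p under 0.05 in edgeR. The 4 osteoblast markers summed to 31.3, 4.56 and 8.56 TPM in KO and 4.33 to 5.28 in WT, so that KO1 stood apart and KO2 lay within WT, and the 2 neuronal markers to 4.09 to 11.5 in KO and 0.728 to 1.07 in WT. *Rbfox3* was at 0 counts in 2 KO and all 3 WT libraries, and the markers of epithelium (0 TPM in all libraries), endothelium (at most 0.0538 TPM), blood (0.966 to 1.73 TPM) and adipocytes (3.52 to 5.96 TPM) were low. The part of these differences in the results below was not tested. In bulk RNA, fewer cells of a type and less RNA per cell cannot be told apart.

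Of the m6A genes, *Alkbh5* alone passed the threshold (edgeR quasi-likelihood test, Benjamini-Hochberg adjusted over all genes, 0.05), and it was lower in KO. No member was higher past the threshold in edgeR or DESeq2. Of all genes tested, 22.7% passed, 10.6% lower in KO and 12.1% higher, so that 1 of 10 members is no more than the share over all genes. At an unadjusted p under 0.05, 2 members (*Alkbh5* and *Wtap*) differed, beside 39.0% of all genes. Fold changes were above 0 in 7 members and below 0 in 3, where 52.3% of all genes tested were above 0. The median log2 fold change of the members was 0.14 against 0.03 for all genes, and the median size without sign was 0.21 against 0.42. The members were also steadier within a genotype, with a median SD of log2 CPM of 0.136 against 0.262 for all genes tested. All genes tested were not matched to the members in level. Each member had at least 515 counts in every library, and some genes tested had far fewer. The part of level in the smaller median size and SD was not tested.

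**Figure D1:**
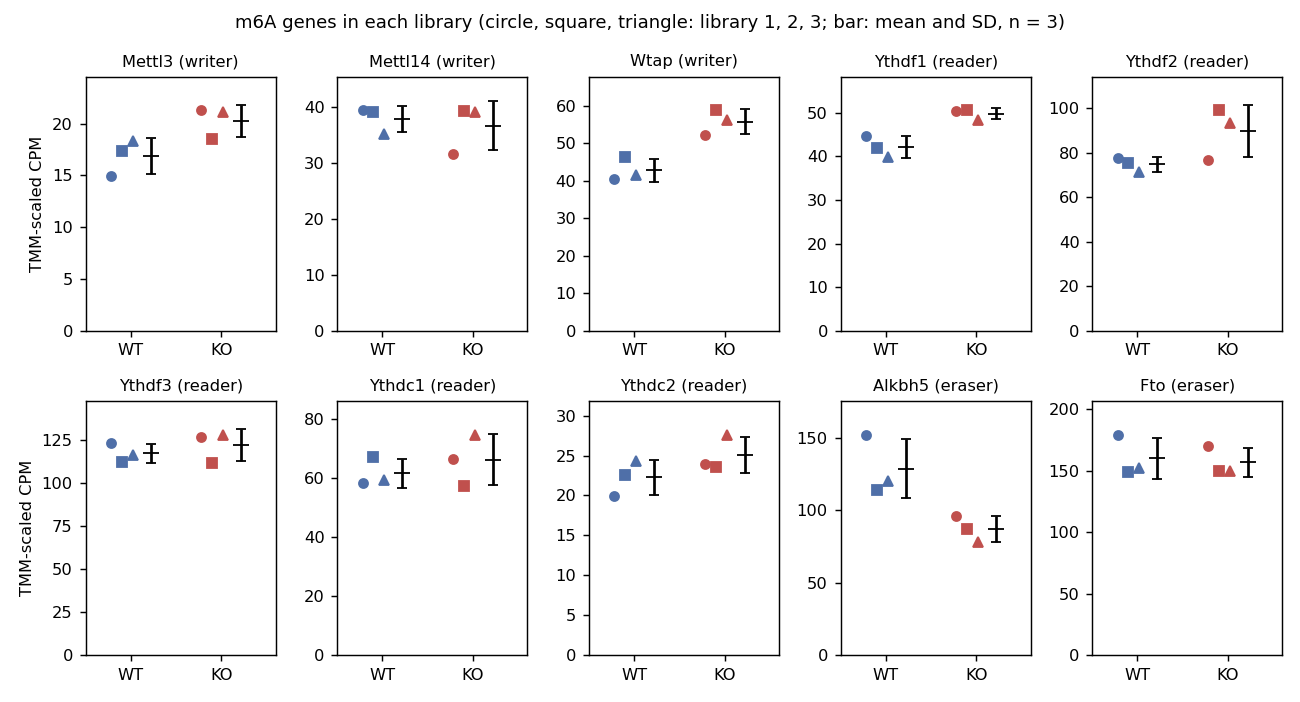
TMM-scaled CPM (counts relative to the library total, linear axis from 0) of the 10 m6A genes in the 3 WT (blue) and 3 KO (red) libraries, with the mean and SD (n = 3) as a black bar. *Alkbh5* is the member with the clearest gap, with KO libraries at 78.2 to 96.4 and WT libraries at 114 to 153, while 6 of the other members overlap.

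*Alkbh5* (ENSMUSG00000042650), the nuclear eraser, lies on chromosome 11 from 60536381 to 60558512 on the plus strand. Its CPM were 96.4, 87.0 and 78.2 in KO against 153, 114 and 121 in WT. The KO libraries were all below the WT libraries, and WT1 stood highest. The means were 87.2 ± 9.09 in KO and 129 ± 20.6 in WT (SD, n = 3), a fold of 0.676 with a 95% interval of 0.528 to 0.864. The log2 fold change was −0.57 ± 0.15 (SE, edgeR adjusted p = 0.035). It was a modest change for these cells, as 37.6% of the genes tested had a larger one in either direction. An exact two-sided permutation test of the CPM gave p = 0.1, the smallest that 3 against 3 libraries allow.

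The call of *Alkbh5* rested on most of the libraries, although its direction did not. Without 1 library at a time the log2 fold change was −0.66 to −0.44. The adjusted p (edgeR) was 0.073 without KO2, 0.096 without KO3, 0.139 without WT1 and 0.075 without WT3, and the gene stayed past the threshold without KO1 (0.021) and without WT2 (0.047). With library totals in place of TMM factors the log2 fold change was −0.45 (adjusted p = 0.057). That scaling moved the median of all genes from 0.03 to 0.15 on the log2 scale, and the share of calls that were higher in KO from 53.4% to 66.2%. In TPM, which StringTie corrects for transcript length, *Alkbh5* was at 10.6, 9.99 and 11.0 in KO against 18.6, 14.4 and 13.8 in WT. The KO libraries were again all lower, and the difference on the log2(TPM + 1) scale was −0.52 ± 0.16 (SE, limma adjusted p = 0.049), where 20.2% of 11691 genes passed. This second call was lost in all 9 alternatives run, with adjusted p of 0.055 to 0.211.

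*Fto* (ENSMUSG00000055932), the other eraser, lies on chromosome 8 from 91313532 to 91668439. It gave 170.5, 150.1 and 150.0 CPM in KO against 179.5, 149 and 152 in WT. The libraries overlapped, with KO1 and WT1 the highest of their genotypes, and the log2 fold change was −0.03 ± 0.13 (SE, edgeR adjusted p = 0.880). Its 95% interval ran from −0.34 to 0.28, and its sign changed with the scaling and with the libraries included. On the opposite strand, Gm45427 and 4831440D22Rik share 304 and 144 exon bases with *Fto*, and without strand their reads could not be told apart from those of *Fto* there.

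Within each library, *Alkbh5* was set against *Fto* as a ratio of TPM, which does not depend on the scaling of the library. The ratio was 0.363, 0.370 and 0.344 in KO against 0.538, 0.491 and 0.508 in WT. The genotypes stood apart and the spread within each was small, at 0.359 ± 0.013 in KO and 0.513 ± 0.024 in WT (SD, n = 3). On the log2 scale the difference was −0.51, and it stayed between −0.54 and −0.48 with any 1 library left out. The exact two-sided permutation p was 0.1, the smallest possible, and 0.35 after adjustment over 7 such ratios. WT1, which stood highest in the level of both erasers, was close to WT2 and WT3 in their ratio.

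The 250 bases before the RefSeq start site of both eraser genes are shown because these genes had the largest and the smallest fold change of the members. The sequences are from RefSeq on GRCm38.p6, plus strand, 5′ to 3′, and capitals mark matches, on either strand, to an E-box (CANNTG, the motif class that MyoD and myogenin bind), a CCAAT box (CCAAT) and a GC box (GGGCGG). The *Alkbh5* window is chr11:60537433-60537682, which lies inside the gene span given above, and the *Fto* window is chr8:91313275-91313524, just upstream of the gene.
Alkbh5: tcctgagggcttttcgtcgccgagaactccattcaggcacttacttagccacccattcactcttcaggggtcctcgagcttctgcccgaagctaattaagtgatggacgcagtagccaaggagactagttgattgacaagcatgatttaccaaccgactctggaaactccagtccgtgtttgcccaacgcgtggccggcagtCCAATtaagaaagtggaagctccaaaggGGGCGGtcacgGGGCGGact
Fto: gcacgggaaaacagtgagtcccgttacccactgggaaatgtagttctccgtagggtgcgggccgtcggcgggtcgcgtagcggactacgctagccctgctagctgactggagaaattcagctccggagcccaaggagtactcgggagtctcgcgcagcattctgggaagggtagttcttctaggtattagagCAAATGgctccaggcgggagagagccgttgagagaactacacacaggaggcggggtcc
The *Alkbh5* window held a CCAAT box 48 bases before the start site and GC boxes 20 and 9 bases before it, with no E-box match, and had 14 CpG and 54.0% GC. The *Fto* window held an E-box match 58 bases before the start site, no CCAAT or GC box, 18 CpG and 59.2% GC. Over all 32851 RefSeq windows of this length, 66.2% held an E-box match, 33.9% a CCAAT box and 32.7% a GC box, and the median GC was 52.4%. These are matches of letters only. Of the 10 members, 7 had a window in the table used.

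Among the writers, *Wtap* (ENSMUSG00000060475, chromosome 17, 12966796 to 12992546), the regulatory subunit, came nearest to the threshold on the higher side. Its CPM were 52.2, 58.8 and 56.2 in KO against 40.4, 46.4 and 41.4 in WT. All KO libraries were above all WT libraries, with means of 55.7 ± 3.37 and 42.8 ± 3.19 (SD, n = 3). The log2 fold change was 0.38 ± 0.12 (SE, edgeR adjusted p = 0.053), a fold of 1.30 with a 95% interval of 1.08 to 1.58. It passed the threshold with library totals alone (0.035), with genes of at least 10 counts in every library (0.047) and without KO1 (0.045, edgeR), and not in the other alternatives, whose highest adjusted p was 0.206. In TPM the libraries were again apart, at 18.6, 22.1 and 25.3 in KO and 15.1, 18.0 and 13.9 in WT, with a difference of 0.46 ± 0.17 on the log2(TPM + 1) scale (SE, limma adjusted p = 0.086, and 0.036 without KO1).

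*Mettl3* (ENSMUSG00000022160, chromosome 14, 52294668 to 52305128), the catalytic subunit, gave 21.3, 18.5 and 21.1 CPM in KO against 14.9, 17.4 and 18.4 in WT. The lowest KO and the highest WT library nearly touched, and the log2 fold change was 0.27 ± 0.15 (SE, edgeR adjusted p = 0.220, 95% interval −0.08 to 0.61). *Mettl3* shares 933 exon bases with *Tox4* on the opposite strand, and the use of strand in counting is not stated, so reads of the pair may not be separated there. In TPM the *Mettl3* libraries overlapped. *Mettl14* (ENSMUSG00000028114, chromosome 3, 123368297 to 123386108), the RNA-binding partner, gave 31.6, 39.3 and 39.0 CPM in KO against 39.4, 39.0 and 35.2 in WT. Only KO1 lay below the WT libraries, and the log2 fold change of −0.05 ± 0.14 (SE, edgeR adjusted p = 0.820) turned to 0.04 without KO1. The ratio of *Mettl14* to *Mettl3* in TPM varied more within genotypes than between them, at 0.629, 1.27 and 0.993 in KO against 1.5, 1.09 and 0.993 in WT (exact permutation p = 0.4). The ratio of *Wtap* to *Mettl3* was 2.61 ± 0.547 in KO and 2.08 ± 0.334 in WT (SD, n = 3, exact permutation p = 0.3).

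The 3 cytoplasmic readers all had a fold change above 0 in counts, and none passed the test. *Ythdf1* (ENSMUSG00000038848, chromosome 2, 180904377 to 180920949) gave 50.4, 50.6 and 48.5 CPM in KO against 44.7, 41.9 and 39.8 in WT. All KO libraries were higher, with a log2 fold change of 0.24 ± 0.11 (SE, edgeR adjusted p = 0.15). *Ythdf2* (ENSMUSG00000040025, chromosome 4, 132184912 to 132212303), which recruits the CCR4-NOT deadenylase, gave 76.8, 99.2 and 93.5 CPM in KO against 77.8, 75.3 and 71.4 in WT. KO2 and KO3 were above all WT libraries and KO1 lay among them, with a log2 fold change of 0.26 ± 0.13 (SE, edgeR adjusted p = 0.179). *Ythdf3* (ENSMUSG00000047213, chromosome 3, 16183212 to 16217037) gave 127, 112 and 128 CPM in KO against 123, 112 and 116 in WT. The genotypes overlapped, with a log2 fold change of 0.06 ± 0.12 (SE, edgeR adjusted p = 0.744, 95% interval −0.22 to 0.33).

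As a share of the summed TPM of the 3 *Ythdf* genes, *Ythdf3* took 41.6%, 34.3% and 39.8% in KO against 41.6%, 42.4% and 43.7% in WT. The ranges were apart by less than the digits given, between KO1 and WT1, and KO2 was the lowest (exact permutation p = 0.1, 0.35 adjusted over 7 ratios). *Ythdf2* took 36.3% ± 4.89 in KO and 33.7% ± 0.184 in WT, and *Ythdf1* 25.1% ± 1.06 and 23.7% ± 1.04 (SD, n = 3), with overlapping libraries in both. The higher mean share of *Ythdf2* came from KO2, at 41.7%, and without it the log2 difference was −0.0077.

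Of the other YTH genes, *Ythdc1* (ENSMUSG00000035851, chromosome 5, 86804221 to 86836659), the nuclear reader, gave 66.3, 57.3 and 74.6 CPM in KO against 58.2, 67.1 and 59.1 in WT. KO2 was the lowest library and KO3 the highest, and the log2 fold change was 0.10 ± 0.14 (SE, edgeR adjusted p = 0.606). Gm43055 shares 631 exon bases with *Ythdc1* on the same strand, where strand cannot separate their reads, and it had 0 counts in all libraries. *Ythdc2* (ENSMUSG00000034653, chromosome 18, 44827746 to 44889724), known for its role in meiosis, gave 24.0, 23.6 and 27.6 CPM in KO against 19.9, 22.6 and 24.3 in WT. WT3 lay above KO1 and KO2, and the log2 fold change was 0.17 ± 0.14 (SE, edgeR adjusted p = 0.413). In TPM the *Ythdc2* libraries were apart, at 2.19, 2.29 and 3.06 in KO and 1.90, 2.18 and 2.16 in WT, by a margin far smaller than the spread within KO (limma adjusted p = 0.422). The ratio of *Ythdc2* to *Ythdc1* overlapped between genotypes (exact permutation p = 0.2).

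**Figure D2:**
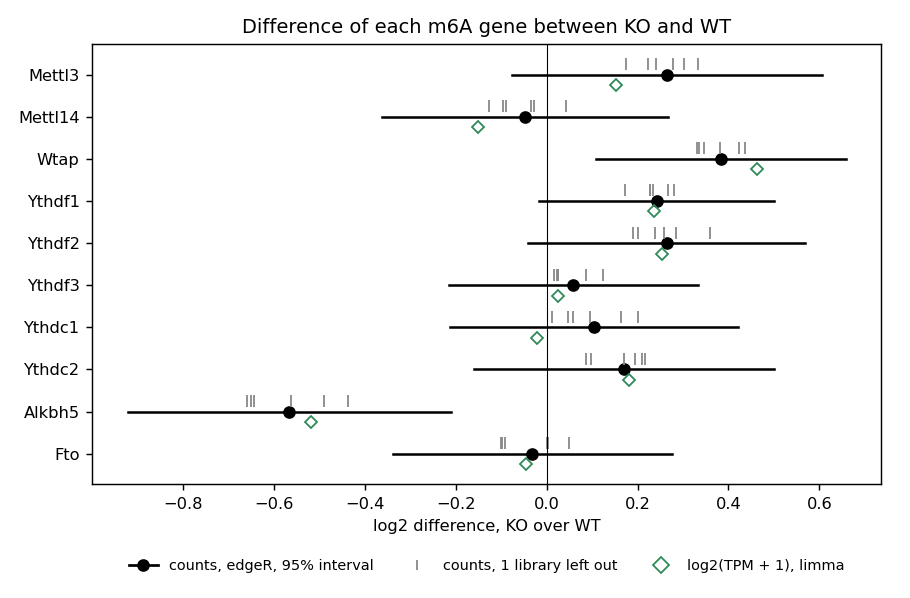
Difference of each m6A gene between KO and WT on the log2 scale (x axis): edgeR fold change of counts with its 95% interval (black), the same fit with each of the 6 libraries left out (grey ticks), and the limma difference of log2(TPM + 1) (green diamonds). The intervals of *Alkbh5* (−0.92 to −0.21) and *Wtap* (0.11 to 0.66) exclude 0 before adjustment, and the other 8 include it.

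Counting members whose KO and WT libraries did not overlap gave a similar picture. In CPM, 4 of 10 members did not overlap, *Mettl3*, *Wtap* and *Ythdf1* being higher and *Alkbh5* lower in KO, where 44.3% of all genes tested did not overlap. In TPM, 3 of 10 did not overlap (*Wtap*, *Ythdc2* and *Alkbh5*), where 40.6% of all genes tested in TPM did not. Only *Wtap* and *Alkbh5* were on both lists. For the 6 members that overlapped in CPM, the 95% intervals of the log2 fold change reached at most 0.57 upward (*Ythdf2*) and −0.36 downward (*Mettl14*), so larger differences in these libraries are outside them.

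Levels per transcript length differed more between members than between genotypes. By mean TPM over the 6 libraries, *Fto* was highest at 29.8 and *Ythdc2* lowest at 2.30, at the percentiles 83.4 and 15.4 of all genes tested in TPM. *Fto* was above *Wtap* (18.8) in 6 of 6 libraries, whereas *Wtap* was above *Ythdf3* (17.0) in all 3 KO libraries and 1 of 3 WT libraries. *Ythdf3* was above *Ythdc1* (15.2) in 6 of 6. *Ythdc1* was above *Ythdf2* (14.8) in all 3 WT libraries and in KO1 alone of the KO libraries. The place of *Alkbh5* (13.1) in the order also differed between the genotypes. It was below *Ythdf2* in all 3 KO libraries (means of 10.5 and 16.3 TPM) and above it in all 3 WT libraries (15.6 and 13.3). It was above *Ythdf1* (10.3) in all 3 WT libraries (means of 15.6 and 9.35 TPM), and in KO only in KO1 (10.5 and 11.2). *Ythdf1* was in turn above *Mettl14* (8.48) in 6 of 6. *Mettl14* and *Mettl3* (8.08), the partners of the writer heterodimer, each led in 3 of 6 libraries, and *Ythdc2* was below *Mettl3* in 6 of 6.

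**Figure D3:**
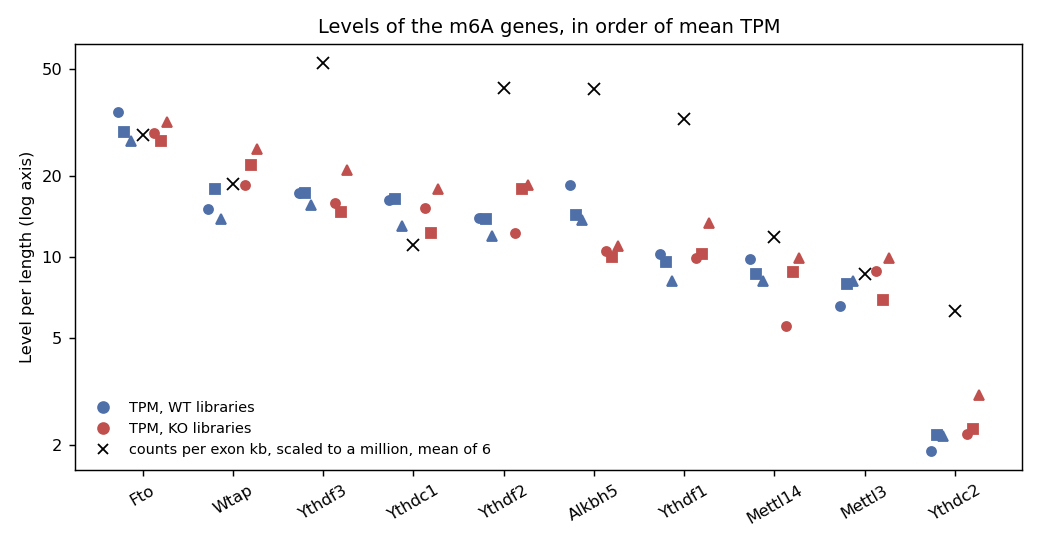
TPM of each m6A gene in the WT (blue) and KO (red) libraries on a log axis, in order of mean TPM, with the mean count per kb of all annotated exon bases scaled to the same total as TPM as a cross. *Fto* leads by TPM and *Ythdc2* is last, while by counts per exon kb *Ythdf3*, *Ythdf2* and *Alkbh5* lead.

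The order depended on the length used. Counts divided by the length of all annotated exon bases and scaled to the same total as TPM put *Ythdf3* first at 52.6, then *Ythdf2* at 42.7 and *Alkbh5* at 42.1, with *Fto* in rank 5 at 28.6 and *Ythdc1* in rank 8 at 11.1. *Mettl3* and *Ythdc2* were in ranks 9 and 10 by this measure too. Comparisons of one member between genotypes do not use this length, while the order of *Fto* and the *Ythdf* genes holds for TPM alone.

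**Figure D4:**
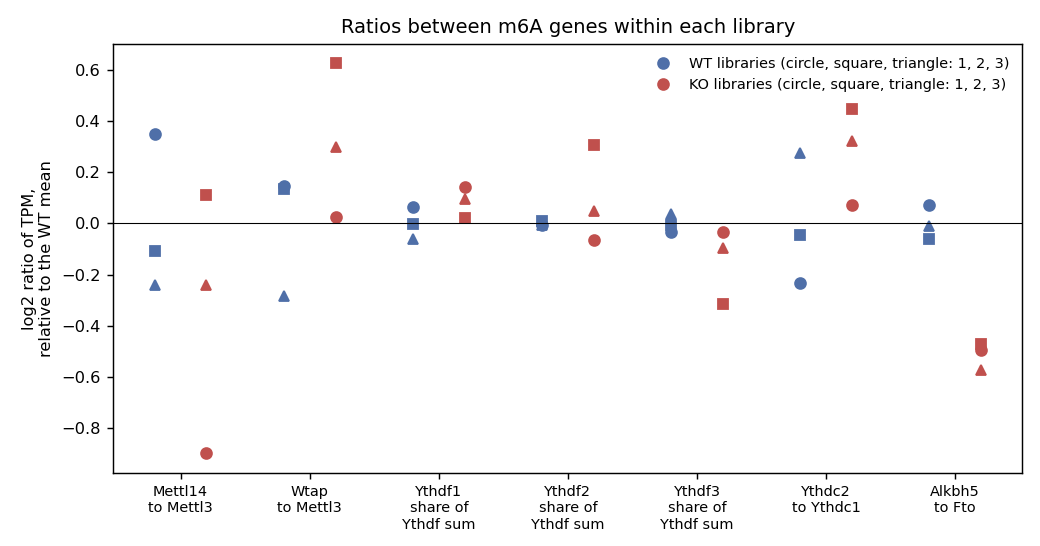
Ratio of TPM between m6A genes within each library, as log2 relative to the mean of the WT libraries (y axis), for WT (blue) and KO (red). The *Alkbh5* to *Fto* ratio is lower in all 3 KO libraries by about the same amount (mean −0.51), the *Ythdf3* share is lower in KO with ranges that all but touch, and the other 5 ratios overlap.

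Each member was also set beside the genes around it. For this, the median log2 fold change of the other tested genes within 5 Mb on either side was taken, as a description with no test. Around *Alkbh5*, 112 genes had a median of −0.21, with 24 lower and 8 higher past the threshold and 25.0% above 0, against 52.3% of all genes tested. Over all genes tested, 10.6% were lower and 12.1% higher past the threshold. In KO1, KO2 and KO3 this median, relative to the WT mean, was −0.18, −0.35 and −0.39 after that library's median over all genes was subtracted. *Alkbh5* itself was at −0.41, −0.56 and −0.71 without that subtraction, so these values do not share a baseline. In the fitted values, *Alkbh5* was below the median of its surroundings by 0.36, and the surroundings were lower too. The part of the region in the *Alkbh5* difference was not tested.

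The other members stood in different ways to their neighbours. Around *Ythdf1*, 56 genes had a median of 0.50, above its own 0.24, and 23 of them were higher past the threshold and 3 lower. Around *Fto*, 73 genes had a median of 0.36, with 21 higher and 2 lower, while *Fto* itself was at −0.03. Over all genes tested, 12.1% were higher past the threshold and 10.6% lower. Around *Mettl14* the median was 0.27 over 51 genes and around *Mettl3* 0.16 over 105. Around *Wtap* (47 genes, 0.02), *Ythdf2* (141 genes, 0.05) and *Ythdc2* (30 genes, 0.05) the medians were near 0, below the fold changes of these members. Around *Ythdc1* and *Ythdf3* they were −0.40 and −0.18 over 24 and 21 genes, so these values rest on few genes.

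**Figure D5:**
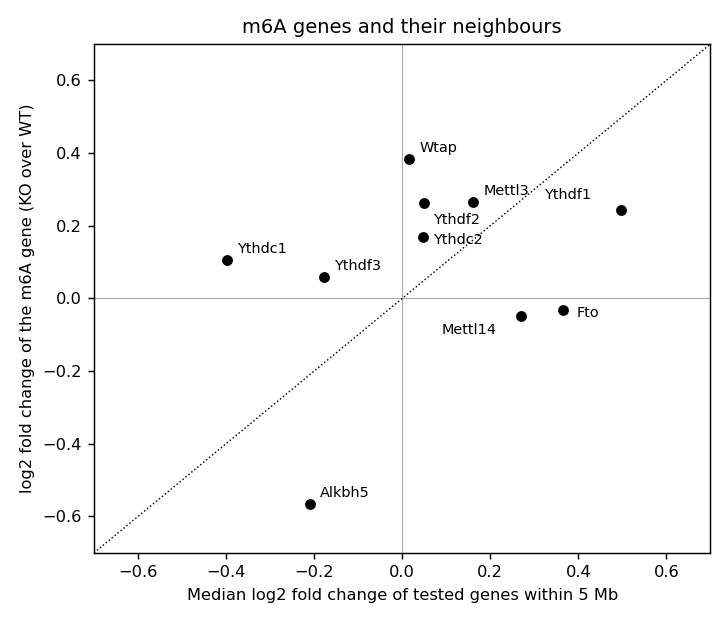
log2 fold change of each m6A gene (y axis) against the median log2 fold change of the other tested genes within 5 Mb (x axis), with the dotted line where both are equal. *Alkbh5* lies at −0.57 with neighbours at −0.21, *Wtap* at 0.38 with neighbours at 0.02, and *Fto* near 0 with neighbours at 0.36.

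The wider m6A pathway was described with 49 genes in 5 lists, of which 48 were tested and 9 passed the threshold, 3 higher and 6 lower in KO. That is 18.8%, against 22.7% of all genes tested. Of the 11 other writer genes, 0 passed in edgeR. The 1 with an unadjusted p under 0.05 was *Cbll1*, also called Hakai, an E3 ligase bound to the complex, which was named after its values were seen (log2 fold change 0.85 ± 0.28, SE, edgeR adjusted p = 0.065) and passed in DESeq2. The most abundant of them by TPM were *Trmt112*, the activator of several methyltransferases, with a log2 fold change of −0.33 ± 0.23 (SE, edgeR adjusted p = 0.316), and *Virma*, the scaffold of the writer complex, with −0.05 ± 0.14 (SE, edgeR adjusted p = 0.821).

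Of 16 other proposed readers, 15 were tested, 3 were lower and none higher in edgeR, with a median log2 fold change of −0.35 over the list. DESeq2 called 6 lower and none higher, adding *Fxr1*, *Eif3a* and *Snd1*, and at an unadjusted p under 0.05 in edgeR 8 were lower and 2 higher. Over all genes, DESeq2 called 23.9% (11.7% lower), and 39.0% had an unadjusted p under 0.05 in edgeR. *Hnrnpa2b1* and *Igf2bp1* are on this list, the latter with too few counts to test. *Igf2bp2*, which stabilises m6A-marked RNA and is high in myoblasts, gave 9.40, 2.50 and 2.83 CPM in KO against 45.3, 41.7 and 35.7 in WT. The KO libraries were far below all WT libraries, with KO1 the highest of them, and the log2 fold change was −3.07 ± 0.50 (SE, edgeR adjusted p = 0.0065). It was −3.95 without KO1 and −2.75 without KO2. *Fxr2*, a paralog of the fragile X protein, gave 153, 131 and 115 CPM in KO against 281, 270.1 and 246 in WT. Its libraries were also apart, with a log2 fold change of −1.002 ± 0.149 (SE, edgeR adjusted p = 0.0052). *G3bp1*, a stress granule protein reported to be repelled by m6A, was at −0.55 ± 0.14 (SE, edgeR adjusted p = 0.026).

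Of 9 partners through which readers act, 3 were higher and none lower in edgeR and in DESeq2, where edgeR called 12.1% of all genes higher. At an unadjusted p under 0.05, 3 were higher and 1 lower. *Rida*, which bridges *Ythdf2* to an endonuclease, gave 11.9, 14.1 and 12.9 CPM in KO against 6.25, 6.12 and 5.50 in WT. The KO libraries were all higher, with a log2 fold change of 1.12 ± 0.17 (SE, edgeR adjusted p = 0.0051). *Srsf3*, a splicing factor recruited by *Ythdc1*, was at 0.89 ± 0.22 (adjusted p = 0.025) and *Cnot1*, the scaffold of the deadenylase that *Ythdf2* recruits, at 0.49 ± 0.14 (SE, edgeR adjusted p = 0.036). Among 6 genes of methyl donor supply, *Mat2b*, the regulatory subunit of the enzyme that makes S-adenosylmethionine, was lower at −0.58 ± 0.16 (SE, edgeR adjusted p = 0.034), and none was higher.

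Of 7 other AlkB family genes, the relatives of both erasers, 2 were lower and none higher in edgeR, and DESeq2 called *Alkbh7* lower as well, beside 10.6% and 11.7% of all genes called lower by these tools. In TPM, where limma called 20.2% of all genes, *Alkbh1* was higher (log2 difference 0.74 ± 0.22, SE, limma adjusted p = 0.048). In counts edgeR did not call it (0.38 ± 0.18, SE, edgeR adjusted p = 0.146). *Alkbh3* and *Alkbh7* were lower in TPM (limma adjusted p = 0.042 and 0.028), and *Alkbh4*, *Alkbh6* and *Alkbh8* did not pass. *Alkbh1* and *Alkbh3* were named after their values were seen. With 7 genes, such counts are a description only. *Alkbh8*, a transfer RNA modifier, gave 12.0, 11.0 and 13.0 CPM in KO against 19.7, 16.8 and 17.7 in WT, with a log2 fold change of −0.59 ± 0.15 (SE, edgeR adjusted p = 0.028), close to that of *Alkbh5*. *Alkbh2*, a DNA repair enzyme, was low throughout, at 0.147 to 0.504 CPM in KO and 0.762 to 1.53 in WT (log2 fold change −1.89 ± 0.51, SE, edgeR adjusted p = 0.035). *Igf2bp2*, *Fxr2* and *Rida* stayed past the threshold in all 12 alternatives run for each. *G3bp1*, *Cnot1*, *Srsf3*, *Mat2b*, *Alkbh2* and *Alkbh8* kept their direction but each lost the call in 4 to 7 alternatives. All 6 lost it without WT1 (edgeR adjusted p of 0.089 to 0.141) and without WT3 (0.069 to 0.158), and all but *Alkbh8* without KO3 (0.064 to 0.094). *Cnot1* and *Srsf3* (both 0.052) and *Alkbh8* (0.066) also lost it without KO2, and *G3bp1* (0.071), *Cnot1* (0.089) and *Alkbh8* (0.053) without WT2 (edgeR adjusted p). With library totals alone *G3bp1* (0.061), *Mat2b* (0.078) and *Alkbh8* (0.063) lost it, and without a filter on low counts *Cnot1* (0.093) did (edgeR adjusted p).

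The genes whose log2 CPM over the 6 libraries were most like those of *Alkbh5*, among 9017 genes whose log2 CPM averaged 3 or more, were *Snx27* (Pearson's r = 0.996), *Dusp4* (0.994) and *Per1* (0.991). *Snx27*, an endosomal sorting nexin on chromosome 3, gave 77.2, 65.9 and 59.7 CPM in KO against 116, 88.2 and 91.3 in WT. It showed the same order within KO and the same high WT1. *Dusp4*, a MAP kinase phosphatase on chromosome 8, and *Per1*, a circadian repressor on chromosome 11, had log2 fold changes of −1.07 and −0.69. Both genotypes enter these correlations, and 230 genes reached an r of at least 0.95, so the likeness is a description of the pattern over 6 libraries.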

How the data were processed

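RNA was sequenced from 3 KO and 3 WT libraries of differentiating C2C12 cells. The deposited counts per gene are raw numbers of reads that the authors counted after alignment, without normalization, and the TPM values that the authors deposited per library come from StringTie. The submitters' processing notes name FastQC, Trim Galore, STAR, featureCounts, StringTie and Salmon, without versions, and the build mm9, whereas the methods name GRCm39. Deposited gene coordinates fit GRCm38 (83.2% of genes identical to GENCODE vM21), so positions are on GRCm38. All 6 count columns were used. TPM rows that share an identifier within a library were summed.

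Counts were scaled with TMM (factors 0.949 to 1.08), filtered with filterByExpr and tested with edgeR 4.0.16 (quasi-likelihood, genotype alone, two-sided, R 4.3.3), with Benjamini-Hochberg adjustment over 14828 genes and a threshold of 0.05. Genes that reached a TPM of 1 in 3 or more libraries were tested as log2(TPM + 1) with limma 3.58.1. Single values and ratios were compared with exact permutation tests, whose smallest p is 0.1. The fits were checked on simulated counts. Replicate libraries differed by 50.1 to 189 chi-square per degree of freedom, so none repeats another. Alternatives were DESeq2 1.42.0, RLE factors, library totals, other filters, a pseudocount of 0.1, a replicate block and each library left out. The members and gene lists were chosen with earlier results of these data known. Named were all members, *Hnrnpa2b1*, every gene of the wider lists past the threshold, otherwise a list's 2 most abundant genes, and the 3 genes most like the member with the smallest p. Splicing and protein were not analysed here.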

Additional observations from a re-analysis of the deposited data

How the results depend on the processing

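Across all alternatives of the count fit, *Alkbh5* stayed lower and *Mettl3*, *Wtap*, *Ythdf1*, *Ythdf2*, *Ythdf3*, *Ythdc1* and *Ythdc2* stayed higher in KO. *Mettl14* turned positive with library totals alone (0.0742) and without KO1, over a range of −0.13 to 0.0424 when 1 library was left out. *Fto* turned positive with library totals alone (0.0823) and without KO2, KO3 or WT1 (range −0.10 to 0.0491). In TPM, the range with 1 library left out crossed 0 for *Mettl14* (−0.30 to 0.0671), *Ythdf3* (−0.12 to 0.12), *Ythdc1* (−0.14 to 0.11) and *Fto* (−0.12 to 0.0508), and the share of *Ythdf2* among the *Ythdf* genes for the log2 ratio (−0.0077 to 0.18). The causes were not tested.

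Of the 10 members, 1 passed in counts in edgeR and in DESeq2 (*Alkbh5* in both), 1 with library totals alone (*Wtap*), 2 passed with at least 10 counts in every library (*Alkbh5* and *Wtap*), and 0 to 2 passed with 1 library left out. In TPM, 1 passed, and 0 with a pseudocount of 0.1, without a filter and with the replicate block, with a range of 0 to 1 when 1 library was left out. Genes called over all tested numbered 3361 in counts, and 933 (without WT1) to 4712 (without KO1) with 1 library left out, 2088 without KO3, 2100 without WT2 and 1288 without WT3. In TPM 2366 genes were called, 1056 without a filter, and 482 (without WT1) to 3134 with 1 library left out. Of the wider lists 9 genes were called, 14 by DESeq2, 15 without a filter, and 3 (without WT1 or WT3) to 16 (without KO1) with 1 library left out.

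Libraries with the same number did not deviate together (r = 0.14, −0.12 and 0.0041 for numbers 1 to 3), so the numbers were not taken as pairs. With the replicate block, 2520 genes, 1 member (*Alkbh5*, edgeR adjusted p = 0.044) and 5 genes of the wider lists were called. Those 5 include a gene that was gained, as it was not called without the block. Of the 9 called without the block, *Igf2bp2*, *Fxr2*, *Rida* and *Srsf3* stayed and *G3bp1* (0.057), *Cnot1* (0.086), *Mat2b* (0.071), *Alkbh2* (0.069) and *Alkbh8* (0.061, edgeR adjusted p) did not. *Igf2bp1*, with 0 to 8 counts in a library, was not tested, and *Alkbh2* was left out with at least 10 counts in every library, so nothing is said of either there.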
